A study of Mus musculus with 4 samples.

Results

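Hyaluronan is a long sugar polymer of the extracellular matrix, and 10 genes that make, bind or break it down are described here across the fibroblasts of a mouse melanoma. The genes were taken by name from a list of hyaluronan synthases, binding proteins and breakdown genes, and all 10 were found by symbol among the 33696 genes of the files. Hyaluronan is made at the plasma membrane by synthases that push the growing chain out of the cell, it is held in the matrix and at the cell surface by binding proteins and receptors, and it is cut by hyaluronidases. It swells tissue with water, and its coats and cables are prominent in inflamed tissue, in tumour stroma and on the mesothelium that lines the body cavities.

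The study asked which cancer-associated fibroblasts go with tertiary lymphoid structures, and it sorted them by a *Cxcl13* reporter. B16-F1-OVA melanoma cells, 400000 per mouse, were injected into the peritoneal cavity of Cxcl13-cre-tdTomato mice crossed with the R26R-eGFPflox reporter line, B6;129-Gt(ROSA)26Sortm2Sho/J, with C57Bl/6 given as the host strain, and tumours were taken on day 14. CD45 neg CD31 neg podoplanin hi cells were sorted into 4 populations, tdTomato neg eGFP+, tdTomato+ eGFP neg, tdTomato+ eGFP+ and the double-negative tdTomato neg eGFP neg cells, each of which gave 1 droplet library of 3′ ends. All 4 populations share the genotype, the tumour model and the time point. The *Cxcl13* promoter drives both tdTomato and the Cre recombinase, so tdTomato reports present promoter activity and eGFP marks cells with present or earlier Cre activity. The number and age of the animals behind each library are not given.

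The deposited values are counts of unique molecular identifiers (UMIs), each standing for 1 captured RNA molecule. The tdTomato neg eGFP+ library held 63310850 UMIs in 6461 cell barcodes, the tdTomato+ eGFP neg library 52046896 in 5299, the tdTomato+ eGFP+ library 10071954 in 984 and the double-negative library 90259852 in 11745. Cells with 500 to 6000 detected genes and at most 10% mitochondrial UMIs were kept, which left 6006, 4952, 920 and 10813 cells in that order, 22691 in all. Their median depth was 8399, 9156, 8670 and 5607 UMIs, so the double-negative cells were the shallowest. Barcodes that occurred in more than 1 library belonged to 106 of the kept cells. Cells with *Xist* and no Y-linked UMI made up 23.2%, 43.2%, 42.1% and 25.5% of the collagen-expressing cells of the 4 libraries, and cells with a Y-linked and no *Xist* UMI 29.8%, 22.2%, 22.8% and 19.2%, so every library held cells of both marks in differing shares.

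Clustering, done with the 10 genes and the other hyaluronan genes held out, gave 21477 collagen-expressing cells, 622 melanoma-like cells and 592 immune-like cells. The collagen-expressing cells fell into 7 clusters, numbered 0 to 6, which were named from marker lists. Clusters 3 and 6 were called matrix fibroblast-like, and 6 of 9 matrix markers were highest in one or the other. Clusters 1, 2 and 4 were called mesothelial-like, and 11 of 12 mesothelial markers were highest in cluster 2 and the remaining 1 in cluster 4. The name is weakest for cluster 1, with a mean relative level of 1.30 for the mesothelial and 0.991 for the hypoxic inflammatory markers. Cluster 0 was called hypoxic inflammatory-like, and 6 of 7 markers, *Serpinb2* the most abundant, were highest there. Clusters 1 and 6 held the cycling cells. The 10 genes that lead each cluster by fold held none of its markers, and they included the haemoglobin genes *Hbb-bs*, *Hba-a1* and *Hba-a2* and the mesothelial gene *Calb2* in cluster 0, the contractile genes *Actg2* and *Lmod1* in cluster 6, the antibody gene *Ighg2b* in cluster 1 and *Ighm* with the cytokine receptor gene *Csf2rb* in cluster 3, which are named here after their values were seen. Endothelial markers summed to at most 13.8 counts-per-million units (CPM) and pericyte markers to at most 30.1 CPM in any of the 7 clusters.

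Cluster 5 was left without a cell type name. All 7 universal fibroblast markers were highest there, at 9219 CPM summed with *Clec3b* the most abundant, and so were 3 of 9 matrix markers and 6 of 6 melanoma markers, the last at 141 CPM against 13230.03 CPM in melanoma-like cells. Its median depth of 1736 UMIs was 0.300 of that of the libraries its cells came from, and 1734 of its 1837 cells came from the double-negative library. Its 66 cells from the tdTomato neg eGFP+ library had a median of 1824.5 UMIs. Whether cluster 5 is a cell type or a feature of 1 library was not tested. In cluster 5, 98.8% of the cells marked by *Xist* or a Y-linked gene alone carried *Xist*, against 53.7% and 52.9% in matrix clusters 3 and 6, 76.4% in cluster 0, and 49.0%, 41.6% and 15.2% in mesothelial-like clusters 1, 2 and 4.

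The classes were unevenly spread over the libraries, which bears on every comparison of libraries. Matrix fibroblast-like cells made up 7.35%, 11.9%, 11.1% and 35.4% of the collagen-expressing cells of the tdTomato neg eGFP+, tdTomato+ eGFP neg, tdTomato+ eGFP+ and double-negative libraries. Mesothelial-like cells made up 70.2%, 36.6%, 41.1% and 41.0% in the same order. Hypoxic inflammatory-like cells made up 21.3%, 50.7%, 47.5% and 6.59%, highest in both tdTomato+ libraries. Among the mesothelial-like cells, cycling cluster 1 was the largest cluster in the 3 reporter-positive libraries, with 1631 of 4052, 1022 of 1695 and 187 of 355 cells, while in the double-negative library cluster 2 was the largest, with 1897 of 4189.

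Levels are CPM of a gene after the UMIs of all cells in a group are added up, and values for the 4 libraries are always given in the order tdTomato neg eGFP+, tdTomato+ eGFP neg, tdTomato+ eGFP+ and double-negative. Ranges after a value are exact 95% intervals, Poisson for levels and Clopper-Pearson for shares. They cover counting error only, since each population has 1 library and the spread between mice is unknown. Droplet libraries also hold free RNA, and the level in melanoma-like cells is given beside the others for comparison. Whether those cells transcribe the genes themselves was not tested, and the 6 collagen genes summed to 1813 CPM there, against 21179 CPM in collagen-expressing cells. In immune-like cells the same genes summed to 14483 CPM, far above the melanoma-like level. Melanoma-like cells were also deeper, with a median of 17636.5 UMIs against 6829 in immune-like cells. The part of free RNA in either level was not tested. A gene was called different between classes when the pooled log2 ratio was at least 1 or at most -1 and had 1 sign in every library with at least 50 cells on both sides. Between libraries the sign had to hold in every cluster of that size.

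**Figure D1:**
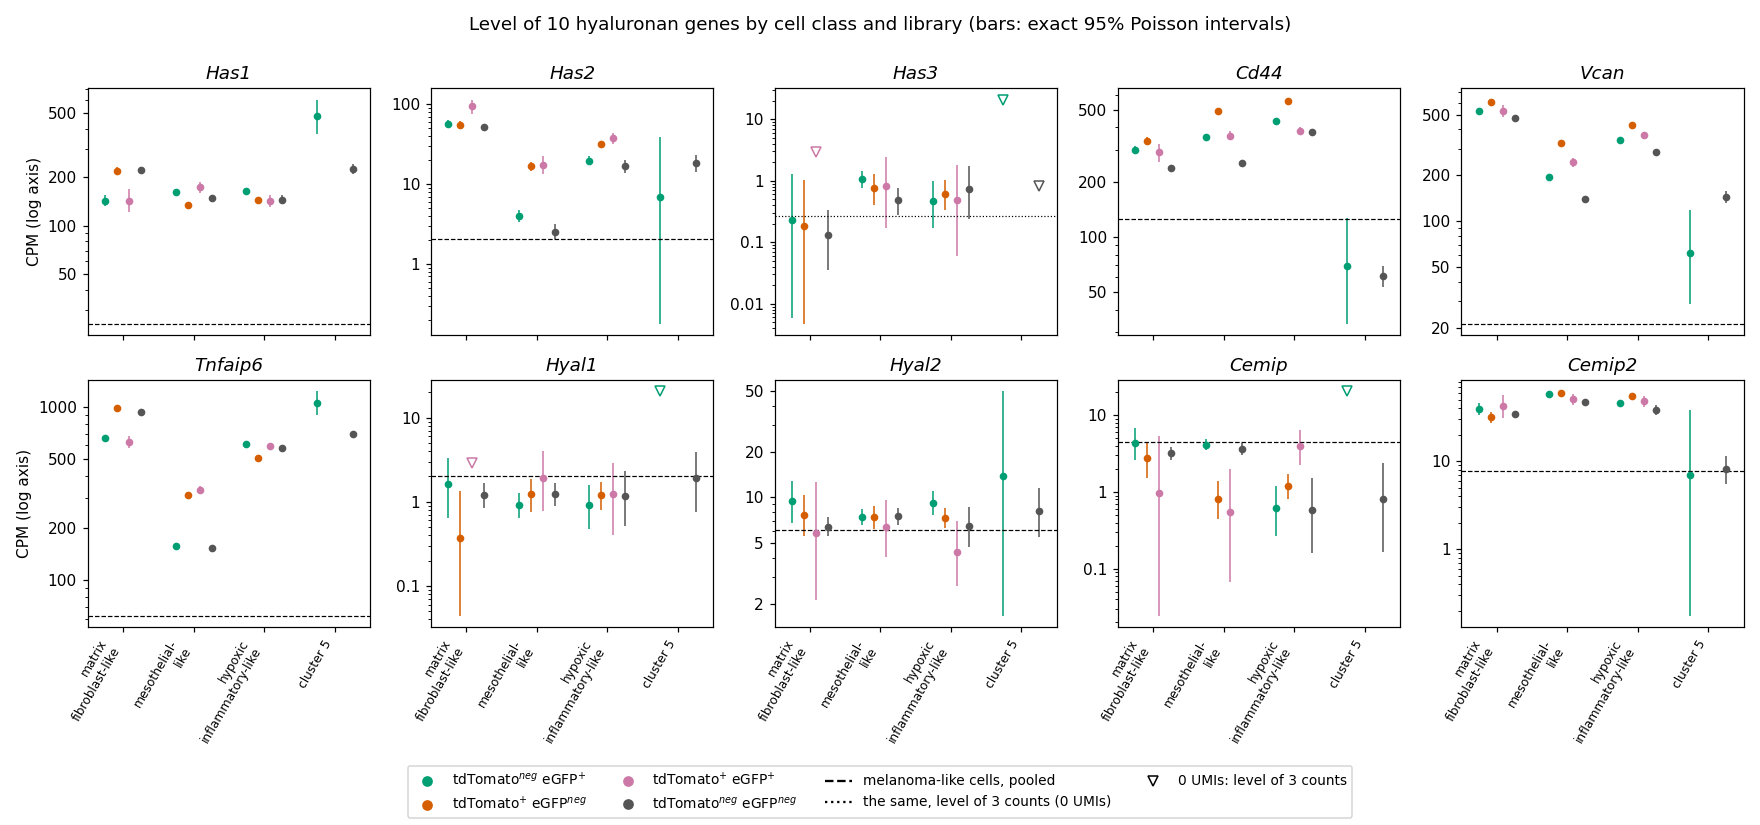
Level of each of the 10 genes (CPM, log axis) in the 4 groups of collagen-expressing cells, with 1 point per library, bars for the exact 95% Poisson interval and open triangles at the level of 3 counts where a gene had 0 UMIs. The horizontal line is the pooled level in melanoma-like cells, at 24.4 CPM for *Has1* and 2.05 CPM for *Has2*.

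*Has1* (ENSMUSG00000003665) encodes a hyaluronan synthase, and it was the synthase with the most UMIs, 31518 over the kept cells. Its level in matrix fibroblast-like cells was 143, 218, 143 and 222 CPM in the 4 libraries, and in mesothelial-like cells 162, 133, 173 and 147 CPM. Hypoxic inflammatory-like cells held 163, 145, 142 and 145 CPM, and cluster 5 held 478 CPM in the tdTomato neg eGFP+ and 225 CPM in the double-negative library. The libraries thus overlapped between the 3 named classes, and *Has1* was a broadly spread transcript. Pooled, the order was cluster 5 at 231 CPM (216 to 247), matrix at 212 (207 to 216), mesothelial-like at 152 (149 to 154) and hypoxic inflammatory-like at 149.6 (146 to 153). The last pair did not differ beyond counting error, and cluster 5 lay above matrix cells by a log2 ratio of 0.13 (0.03 to 0.23), with 1.75 in the tdTomato neg eGFP+ and 0.02 in the double-negative library. Among the single clusters, mesothelial-like cluster 2 stood at 205 CPM and mesothelial-like clusters 1 and 4 at 137 and 126 CPM. Melanoma-like cells held 24.4 CPM.

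*Has2* (ENSMUSG00000022367) encodes another synthase, the one needed for heart development in the embryo, and it was sorted by class far more sharply than *Has1*. Matrix fibroblast-like cells held 57.1, 55.3, 94.1 and 52.6 CPM in the 4 libraries. Mesothelial-like cells held 3.99, 16.7, 17.4 and 2.54 CPM, below the matrix cells of every library and higher in the tdTomato+ libraries. Hypoxic inflammatory-like cells lay between, at 19.7, 31.9, 37.8 and 16.7 CPM. The pooled order was matrix at 54.5 CPM (52.2 to 56.8), hypoxic inflammatory-like at 26.9 (25.4 to 28.4), cluster 5 at 17.9 (13.9 to 22.6) and mesothelial-like at 6.34 (5.84 to 6.88), and no neighbours overlapped. The cycling and the non-cycling matrix cluster were alike, at 56.8 and 53.2 CPM. Cluster 2, the mesothelial-like cluster with the most *Has1* of those 3, had 1.29 CPM of *Has2*, no higher than the 2.05 CPM of melanoma-like cells. Immune-like cells held 81 UMIs of *Has2*, beside 503 of *Has1*.

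The tdTomato+ libraries also had the higher *Has2* levels within mesothelial-like clusters 1 and 4, but not both of them in cluster 2. In cluster 1 the 4 libraries held 5.90, 20.6, 23.3 and 3.49 CPM, and in cluster 4 they held 2.34, 6.79, 12.7 and 2.39 CPM. Cluster 2 held 11, 6, 0 and 12 UMIs, or 1.22, 3.07, 0 and 1.10 CPM, where 0 UMIs allow 4.13 CPM. In matrix cluster 3 the tdTomato+ eGFP+ library, with 53 cells, stood apart at 129 CPM against 55.01, 54.0 and 51.0 CPM in the others. *Has2os*, a gene on the opposite strand at the same locus, held 18.6 CPM in matrix and 3.45 CPM in mesothelial-like cells. It did not follow *Has2* everywhere, since cluster 5 held 24.8 CPM of *Has2os* and less *Has2* than matrix cells. How far reads of either gene were counted for the other was not tested.

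*Has3* (ENSMUSG00000031910), the remaining synthase gene, was nearly undetected, with 109 UMIs in all kept cells. Mesothelial-like cells held 1.08, 0.761, 0.831 and 0.477 CPM and hypoxic inflammatory-like cells 0.459, 0.603, 0.491 and 0.738 CPM. Matrix cells held 1, 1, 0 and 4 UMIs, a pooled 0.144 CPM (0.0530 to 0.314). With 0 UMIs in cluster 5, a level of up to 0.766 CPM remains possible there. The highest cluster was mesothelial-like cluster 4, at 2.09 CPM, and melanoma-like cells held 0 UMIs, which allows 0.267 CPM.

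The make-up of the synthase UMIs therefore differed between the classes. Counts of 3′ UMIs do not scale with transcript length, so the UMIs of the 3 synthases are set side by side here. Whether the 3 genes were captured equally was not tested, nor how far *Has2* and *Has2os* reads were counted for each other. *Has1* gave 87.8% of the 35032 synthase UMIs of the collagen-expressing cells, and *Has2* 11.9%. In matrix fibroblast-like cells *Has2* made up 28.5%, 20.2%, 39.8% and 19.1% of synthase UMIs in the 4 libraries. In mesothelial-like cells it made up 2.40%, 11.1%, 9.13% and 1.69%, and in hypoxic inflammatory-like cells 10.7%, 18.0%, 21.0% and 10.3%. In each library the order was matrix, hypoxic inflammatory-like, mesothelial-like. Pooled, these shares were 20.5% (19.7 to 21.2), 15.2% (14.4 to 15.96) and 3.99% (3.68 to 4.32), and cluster 5 stood at 7.17% (5.63 to 8.97). *Has3* made up 0.498% in mesothelial-like and 0.0542% in matrix cells.

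**Figure D2:**
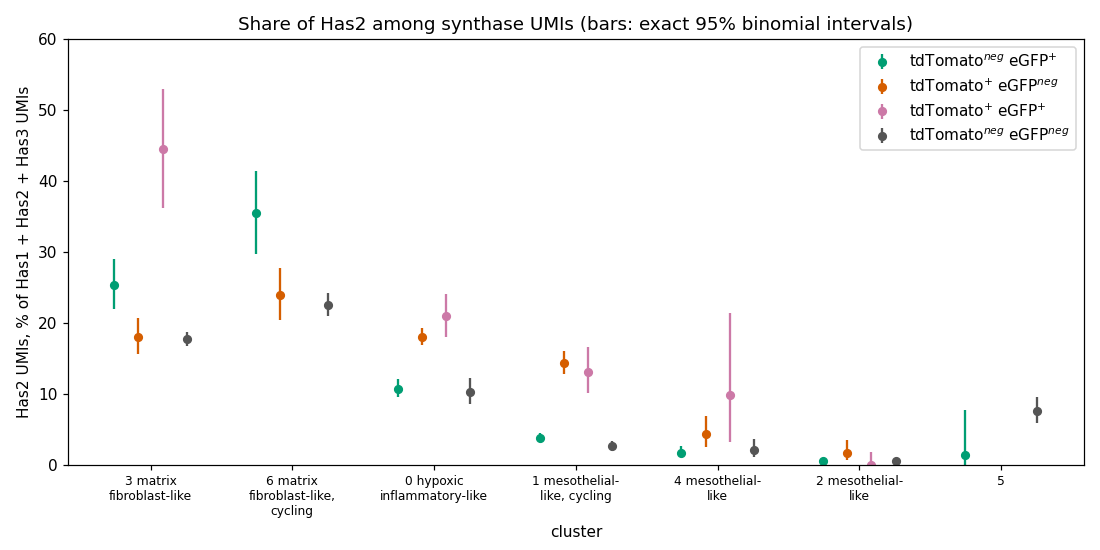
Percent of the UMIs of the 3 hyaluronan synthases that belong to *Has2*, by cluster and library, with exact 95% Clopper-Pearson intervals. Matrix cluster 3 ranges from 17.7% in the double-negative to 44.4% in the tdTomato+ eGFP+ library, and mesothelial-like cluster 2 has 0.620% when the libraries are pooled.

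*Cd44* (ENSMUSG00000005087) encodes the main cell-surface hyaluronan receptor, which leukocytes carry too. Hypoxic inflammatory-like cells held 432, 558, 381 and 376 CPM in the 4 libraries, mesothelial-like cells 352, 492, 361 and 255 CPM, and matrix cells 301, 339, 291 and 240.4 CPM. In each library the order was the same, hypoxic inflammatory-like, mesothelial-like and matrix. The tdTomato+ eGFP neg library was the highest and the double-negative library the lowest in all 3 classes. Pooled levels were 482 CPM (476 to 488), 343 (339 to 347) and 261 (256 to 266), with cluster 5 last at 61.3 (53.7 to 69.5), below the 126 CPM of melanoma-like cells. Immune-like cells held 400 CPM. By cluster, mesothelial-like cluster 4 was the highest at 520.2 CPM and its neighbour cluster 2 stood at 186 CPM.

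*Vcan* (ENSMUSG00000021614) encodes versican, a large proteoglycan that binds hyaluronan and builds it into the matrix. Its level was 529, 607, 529.9 and 476 CPM in matrix cells of the 4 libraries, 339.9, 425, 368 and 284 CPM in hypoxic inflammatory-like cells and 194, 324, 243 and 139.8 CPM in mesothelial-like cells. Again the 3 classes had 1 order in each library, and again the tdTomato+ eGFP neg library was the highest and the double-negative the lowest in each. Pooled, matrix cells held 500.03 CPM (493 to 507), hypoxic inflammatory-like 376 (371 to 382), mesothelial-like 200.2 (197 to 203) and cluster 5 141 (129.9 to 154), without overlap. Melanoma-like cells held 21.1 CPM.

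*Tnfaip6* (ENSMUSG00000053475) encodes a secreted protein induced in inflammation that transfers heavy chains of inter-alpha-inhibitor onto hyaluronan. Matrix cells held 658, 986, 627 and 934 CPM, and mesothelial-like cells 157, 309.7, 332 and 153 CPM. Hypoxic inflammatory-like cells held 610.1, 506, 595 and 579 CPM, and cluster 5 held 1053 CPM in the tdTomato neg eGFP+ and 693 CPM in the double-negative library. Mesothelial-like cells were thus the lowest class in each library. Pooled, the order was matrix at 904 CPM (895 to 913), cluster 5 at 701 (675 to 728), hypoxic inflammatory-like at 553 (546 to 559.9) and mesothelial-like at 191 (188 to 194), again without overlap. The clusters spanned 87.5 CPM in mesothelial-like cluster 2 to 978 CPM in matrix cluster 3, and melanoma-like cells held 62.8 CPM.

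Of the breakdown genes, *Hyal1* and *Cemip* lay below the level of melanoma-like cells in the 3 named classes pooled, *Hyal2* lay near it and *Cemip2* above it. *Hyal1* (ENSMUSG00000010051) encodes the lysosomal hyaluronidase, and its pooled level was 1.11 CPM in matrix, 1.14 in mesothelial-like, 1.12 in hypoxic inflammatory-like cells and 1.79 in cluster 5, all below the 2.05 CPM of melanoma-like cells and with overlapping intervals. *Hyal2* (ENSMUSG00000010047), a membrane-anchored hyaluronidase that starts the breakdown at the cell surface, stood at 6.905, 7.42, 7.51 and 8.17 CPM in the same order, with overlapping intervals and 6.15 CPM in melanoma-like cells. Over all collagen-expressing cells *Hyal2* held 8.04, 7.42, 5.39 and 7.01 CPM in the 4 libraries and *Hyal1* 0.971, 1.11, 1.38 and 1.26 CPM. No class difference in either gene was detectable at this depth.

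*Cemip* (ENSMUSG00000052353) encodes a hyaluronan-binding protein needed for hyaluronan breakdown in skin fibroblasts. Matrix cells held 4.37, 2.75, 0.971 and 3.22 CPM, mesothelial-like cells 4.15, 0.819, 0.554 and 3.67 CPM and hypoxic inflammatory-like cells 0.613, 1.21, 3.93 and 0.590 CPM. None of these passed the 4.54 CPM of melanoma-like cells. In cluster 4 the pooled level was 7.53 CPM. Single cells carried part of the *Cemip* UMIs. Of the 297 UMIs of mesothelial-like cells 36 lay in 1 cell, and the 16 UMIs of hypoxic inflammatory-like cells of the tdTomato+ eGFP+ library lay in 2 cells.

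*Cemip2* (ENSMUSG00000024754), which encodes a related transmembrane protein with reported hyaluronidase activity, was the breakdown gene with the most UMIs, 9205. Mesothelial-like cells held 58.5, 59.6, 50.7 and 47.5 CPM, hypoxic inflammatory-like cells 46.4, 55.1, 48.1 and 38.4 CPM, and matrix cells 39.4, 31.8, 42.7 and 34.9 CPM. Mesothelial-like cells were the highest of the 3 classes in each library. Pooled, they held 54.4 CPM (52.9 to 55.9), hypoxic inflammatory-like cells 49.7 (47.7 to 51.7), matrix cells 35.15 (33.4 to 37.0) and cluster 5 7.91 (5.38 to 11.2), the last at the 7.84 CPM of melanoma-like cells. Cluster 4 was the highest cluster, at 86.8 CPM.

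The first comparison sets matrix fibroblast-like against mesothelial-like cells. A synthase and a pair of binding genes were higher in the matrix cells, and the rare synthase gene *Has3* was lower. Called higher were 3 of 10 genes, against 9.28% of the 14380 genes with at least 100 UMIs in collagen-expressing cells, and called lower was 1, against 8.31%. The median log2 ratio of the 10 was -0.01, beside -0.07 over all genes tested.

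*Has2* was higher in matrix cells by 3.10 on the log2 scale (2.97 to 3.24). The libraries gave 3.83, 1.73, 2.43 and 4.37, and leaving out the tdTomato+ eGFP neg library raised the pooled value to 3.77. The *Has2* ratio was 2.30 in cells with *Xist* and no Y-linked UMI and 3.68 in cells with a Y-linked and no *Xist* UMI. *Tnfaip6* was higher by 2.24 (2.22 to 2.27), with 2.07, 1.67, 0.92 and 2.61 in the 4 libraries. *Vcan* was higher by 1.32 (1.29 to 1.35), with 1.45, 0.91, 1.13 and 1.77. For all 3 the double-negative library gave the largest ratio. *Has3* was lower in matrix cells, at -2.35 (-3.95 to -1.26), and rested on 6 against 73 UMIs. It was no longer called in cells thinned to 1000 UMIs or with 2 counts added in place of 0.5.

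The other 6 genes were not called. *Cd44* stood at -0.40 and *Cemip2* at -0.63, each with 1 sign in the 4 libraries, while *Has1* stood at 0.48 with libraries of both signs, at -0.18, 0.71, -0.27 and 0.59. *Hyal1*, *Hyal2* and *Cemip* lay at -0.03, -0.10 and 0.01. The 6 listed collagen genes moved in the same direction as *Has2*, *Tnfaip6* and *Vcan*, summing to 33931 CPM in matrix and 13679 CPM in mesothelial-like cells with *Col3a1* the most abundant. By library the sum was 42811, 44401, 40996 and 30585 CPM in matrix cells and 13642, 21459, 19402 and 9140.3 CPM in mesothelial-like cells. Whether the 3 genes move with the collagens for a shared reason was not tested.

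The second comparison sets cluster 5 against matrix fibroblast-like cells. *Cd44*, *Vcan*, *Has2* and *Cemip2* were lower in cluster 5 in both libraries compared, with 1 UMI each of *Has2* and *Cemip2* in the cells of cluster 5 from the tdTomato neg eGFP+ library. Called higher were 0 of 10 genes, against 13.0% of all genes tested, and called lower were 5, against 7.74%. The median log2 ratio of the members was -0.98, beside 0.11 over all genes tested.

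*Cemip2* was lower in cluster 5 by a log2 ratio of -2.13 (-2.71 to -1.64), *Cd44* by -2.09 (-2.28 to -1.91), *Vcan* by -1.82 (-1.95 to -1.70) and *Has2* by -1.60 (-1.97 to -1.27). *Cemip* stood at -1.86 (-4.37 to -0.50) from 3 against 134 UMIs, and was no longer called with 2 counts added or in cells thinned to 1000 UMIs. In the thinned cells *Cemip2* was not called either, since the libraries differed in sign. The ratio rests on the double-negative library, with 1734 cells of cluster 5, and on the tdTomato neg eGFP+ library, with 66. Without the double-negative library *Has2* stood at -2.47 and *Vcan* at -2.62, *Cemip* was no longer called at -0.61, and *Has3* and *Hyal1* passed the threshold at 3.22 and 1.29 with 0 UMIs in the cells of cluster 5 that were left. Pooled, *Has1* stood at 0.13 and *Tnfaip6* at -0.37, and neither was called. *Has1* stood at 1.75 and *Tnfaip6* at 0.68 in the tdTomato neg eGFP+ library, and at 0.02 and -0.43 in the double-negative library. Without the double-negative library *Has1* stood at 0.90 and *Tnfaip6* at 0.01. *Hyal1* at 0.77 (-0.70 to 1.85) and *Hyal2* at 0.26 were not called either, and *Has3* had 0 against 6 UMIs.

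Depth and each of the collagen, inflammatory and stress lists moved with this comparison. The median cell held 1736 UMIs in cluster 5 and 7648 in matrix cells. All 12 genes of the dissociation and immediate early list were detected in both, summing to 9817 CPM in cluster 5 and 5905 CPM in matrix cells with *Fos* the most abundant, and to 12617 and 9739.9 CPM in cluster 5 of the tdTomato neg eGFP+ and double-negative libraries. The 6 collagen genes summed to 4819.7 CPM in cluster 5, with *Col3a1* the most abundant, and to 4032 and 4830.5 CPM in those libraries, against 33931 CPM in matrix cells. The 8 inflammatory genes summed to 2368 CPM in cluster 5, with *Cxcl1* the most abundant, and to 2584 CPM, with 7 of the 8 genes detected, and 2367 CPM in those libraries, against 6105 CPM in matrix cells. The part of depth and these lists in the ratios was not tested. The share of marked cells with *Xist* moved too, as given above. Among cells with *Xist* and no Y-linked UMI, 725 in cluster 5 and 1314 in matrix cells, the ratio was -2.21 for *Cemip2*, -2.08 for *Cd44*, -1.73 for *Vcan* and -1.41 for *Has2*.

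The third comparison sets hypoxic inflammatory-like cells against all other collagen-expressing cells. No member was called in either direction, against 2.15% of all genes called higher and 7.43% called lower, and the median log2 ratio of the members was 0.06 beside -0.14 over all genes tested. *Cd44* had the highest ratio, 0.64, from 482 against 310.3 CPM, with 0.32, 0.30, 0.14 and 0.66 in the 4 libraries. *Tnfaip6* stood at 0.40, *Vcan* at 0.38 and *Has2* at 0.34, and *Tnfaip6* was at 1.53 in the tdTomato neg eGFP+ library against 0.10 to 0.58 in the others. *Cemip* stood at -1.40 with libraries of both signs, and without the tdTomato+ eGFP+ library it was called lower at -1.79. The ratios of *Has1*, *Has3*, *Hyal1*, *Hyal2* and *Cemip2* lay between -0.20 and 0.07.

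In these cells 8 of 8 hypoxia genes were detected and summed to 1462 CPM, against 624 CPM in mesothelial-like and 366 CPM in matrix cells, with *Ero1a* the most abundant. The list shares *Vegfa*, *Slc2a1*, *Ndrg1*, *Ankrd37* and *Ero1a* with the markers that named this class. The high pooled sum therefore follows in part from the naming and is no separate result. By library the hypoxia sum was 1732, 1291, 1016 and 1795 CPM, highest in the double-negative library, where *Cd44*, *Vcan* and *Cemip2* of the same class were at their lowest. The 8 inflammatory genes summed to 7451, 8855, 8087 and 6818 CPM, with *Ccl2* the most abundant and the tdTomato+ eGFP neg library the highest, as for *Cd44* and *Vcan*. Pooled, the inflammatory sum was 8107 CPM, against 6487 CPM in mesothelial-like and 6105 CPM in matrix cells. In mesothelial-like cells it was 6621, 7821, 7291 and 5568 CPM by library, so the libraries overlapped between these classes. The part of either list in the levels was not tested.

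Across whole libraries the reporter-positive populations were each compared with the double-negative one, which the 3 comparisons share. *Cd44* in the tdTomato+ eGFP neg library was the only member called. In that library 1 of 10 genes was called higher, against 1.62% of genes tested, and 0 lower, against 1.38%. In the tdTomato neg eGFP+ library 0 were called higher, against 0.382%, and 0 lower, against 0.529%. In the tdTomato+ eGFP+ library 0 were called higher, against 1.91%, and 0 lower, against 1.39%. The members' median log2 ratio was -0.03, 0.14 and 0.19 for the tdTomato neg eGFP+, tdTomato+ eGFP neg and tdTomato+ eGFP+ libraries, beside 0.08, 0.07 and -0.03 over all genes tested.

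*Cd44* stood at 366, 507, 362 and 250.3 CPM over all collagen-expressing cells of the 4 libraries. The log2 ratio to the double-negative library was 1.02 (0.99 to 1.05) for tdTomato+ eGFP neg, just past the threshold, and 0.55 and 0.53 for tdTomato neg eGFP+ and tdTomato+ eGFP+. For tdTomato+ eGFP neg the ratio was positive in all 6 clusters compared, at 0.57, 0.89, 0.65, 0.43, 0.78 and 0.58 in clusters 0, 1, 2, 3, 4 and 6. With each of these clusters given equal weight it was 0.67, from 450.4 against 284 CPM, under the threshold. *Cd44* was also not called in cells with a Y-linked and no *Xist* UMI, where the ratio was 0.74.

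*Has2* stood at 11.8, 29.0, 36.0 and 25.2 CPM in the 4 libraries, lowest in the tdTomato neg eGFP+ library, where mesothelial-like cells were 70.2% of the cells. The pooled log2 ratios to the double-negative library were -1.09 (-1.22 to -0.96), 0.20 and 0.52, and none was called, since in the first the clusters differed in sign and the others lay under the threshold. With equal weight for each cluster they were 0.03, 0.41 and 1.44, and the last compared 40.5 with 14.9 CPM over 5 clusters. In the tdTomato+ eGFP neg library the ratio was positive in all 6 clusters, from 0.03 in cluster 6 to 2.55 in cluster 1. In the tdTomato+ eGFP+ library it was 1.18, 2.74, 1.35 and 2.49 in clusters 0, 1, 3 and 4, and cluster 2 held 0 against 12 UMIs.

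*Vcan* stood at 254, 408, 335 and 291 CPM and *Tnfaip6* at 305, 489.7, 490.2 and 539 CPM. In the tdTomato+ eGFP neg library *Vcan* was above the double-negative library in all 6 clusters, with a log2 ratio of 0.49 pooled and 0.62 with equal weight. In the tdTomato neg eGFP+ library the *Vcan* ratio turned from -0.20 pooled to 0.19 with equal weight. In the tdTomato+ eGFP+ library it was 0.20 and 0.33. *Tnfaip6* stood at -0.82, -0.14 and -0.14 pooled in the 3 comparisons and at -0.06, 0.13 and 0.06 with equal weight. For tdTomato neg eGFP+ the equal-weight means were 483 against 502 CPM over 7 clusters. They include cluster 5, with 66 cells in that library and more *Tnfaip6* there than in the double-negative library. An equal-weight ratio without cluster 5 was not computed for tdTomato neg eGFP+. *Has1* held 161, 149, 155 and 182 CPM, with pooled ratios of -0.17, -0.29 and -0.23. With equal weight for each cluster the *Has1* ratios were 0.20, 0.03 and 0.04, so the sign turned in each comparison. *Cemip2* held 54.05, 53.9, 48.5 and 39.5 CPM, with ratios of 0.45, 0.45 and 0.30. For *Has3*, at 0.863, 0.611, 0.574 and 0.335 CPM, the largest ratio was 1.35, from 48 against 25 UMIs, and for *Cemip*, at 3.33, 1.24, 2.18 and 3.06 CPM, the tdTomato+ eGFP neg ratio was -1.29 with clusters of both signs. The summed inflammatory list was 6772, 8137, 7556 and 5731 CPM and the summed collagen list 18345, 27903, 27421 and 18436 CPM over the same cells. Population, library and animals cannot be told apart in these comparisons.

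Other genes of the pathway were counted from a list of 48, of which 30 had at least 100 UMIs in collagen-expressing cells. Between matrix and mesothelial-like cells 4 were called higher and 3 lower, beside 9.28% and 8.31% of all genes tested, with a median log2 ratio of 0.29 beside -0.07 over all genes tested. *Ptx3*, whose product binds the *Tnfaip6* protein in hyaluronan matrices, was at 475 against 8.31 CPM, the largest ratio at 5.83. The versican-cleaving protease gene *Adamts4* was at 86.8 against 12.6 CPM (2.79), *Has2os* at 18.6 against 3.45 CPM (2.43), and *Itih5*, of the family that supplies heavy chains, at 90.2 against 22.2 CPM (2.03). Lower in matrix cells were the *Cd44* linker gene *Ezr*, at 24.0 against 241 CPM (-3.33), and the protease genes *Adamts20*, at 0.986 against 5.71 CPM (-2.52), and *Adamts9*, at 99.7 against 211 CPM (-1.08).

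Between cluster 5 and matrix cells 8 pathway genes were called higher and 4 lower, beside 13.0% and 7.74% of all genes tested, with a median of 0.41 beside 0.11. The protease gene *Adamts5* was at 974 against 175 CPM (2.47), *Itih5* at 429.8 against 90.2 CPM (2.25), and *Gfpt2*, for the entry enzyme of amino sugar supply, at 579 against 217 CPM (1.42). The hyaluronan receptor genes *Stab2* and *Lyve1* were at 3.57 against 0.674 CPM (2.43) and at 3.32 against 0.770 CPM (2.14), and *Tlr4* at 48.0 against 11.6 CPM (2.05). *Stab2* and *Lyve1* were rare, with 142 and 170 UMIs over all kept cells, so their ratios rest on few UMIs. *Ptx3* and *Adamts4* were lower, at 185 against 475 CPM and 33.7 against 86.8 CPM, both with a ratio of -1.36. The receptor gene *Hmmr*, known to be raised in cycling cells, was lower at 4.08 against 63.5 CPM (-3.91), and *Adamts9* at 20.2 against 99.7 CPM (-2.30).

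In hypoxic inflammatory-like cells 0 pathway genes were called higher and 4 lower, beside 2.15% and 7.43% of all genes tested, with a median of -0.22 beside -0.14. *Ptx3* was at 16.4 against 154 CPM (-3.23), where the other cells include matrix cells at 475 CPM and mesothelial-like cells at 8.31 CPM. *Hmmr* was at 10.6 against 92.0 CPM (-3.12), *Ezr* at 72.3 against 169 CPM (-1.23) and *Adamts5* at 64.3 against 138 CPM (-1.10). In the library comparisons *Adamts9* was called higher in tdTomato+ eGFP neg, at 298 against 129 CPM (1.20), and *Ptx3* lower in tdTomato+ eGFP+, at 39.0 against 203 CPM (-2.38). In the tdTomato+ eGFP neg library 1 of 30 pathway genes was called higher and 0 lower, beside 1.62% and 1.38% of all genes tested. The tdTomato+ eGFP+ library had 0 higher and 1 lower, beside 1.91% and 1.39%. In the tdTomato neg eGFP+ library 0 pathway genes were called, beside 0.382% of all genes higher and 0.529% lower. The ratios of *Adamts9* and *Ptx3* are pooled over clusters, and equal-weight ratios were not computed for pathway genes. The medians of the 3 library comparisons were -0.02, 0.05 and -0.05 beside 0.08, 0.07 and -0.03.

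Shares of cells with a UMI depend on depth, so each cell was thinned to 1000 UMIs, which left out 23 matrix, 291 mesothelial-like, 9 hypoxic inflammatory-like and 265 cluster 5 cells, 7 melanoma-like and 37 immune-like cells. By library 124, 40, 11 and 413 collagen-expressing cells were left out. The median depth as sequenced was 7648, 7306, 9238 and 1736 UMIs in the 4 groups of collagen-expressing cells, 17636.5 in melanoma-like and 6829 in immune-like cells.

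*Tnfaip6* was found in 44.3% of thinned matrix cells, 34.4% of cluster 5, 29.9% of hypoxic inflammatory-like and 11.4% of mesothelial-like cells, with 3.09% in melanoma-like and 7.57% in immune-like cells. As sequenced the shares were 80.9%, 47.6%, 66.3% and 37.3%, against 24.6% and 31.4%. Cluster 5 ranked above the hypoxic inflammatory-like cells only after thinning. *Vcan* was found in 32.3% of matrix, 27.8% of hypoxic inflammatory-like, 15.04% of mesothelial-like and 10.1% of cluster 5 cells, with 1.14% in melanoma-like and 11.0% in immune-like cells, and as sequenced in 79.9%, 81.0%, 55.8% and 20.1%, against 18.3% and 39.7%.

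*Cd44* was found in 33.4% of hypoxic inflammatory-like, 23.9% of mesothelial-like, 17.3% of matrix and 4.96% of cluster 5 cells after thinning, and in 86.9%, 68.9%, 62.6% and 10.1% as sequenced. Melanoma-like cells had 10.1% after thinning and 68.8% as sequenced, so the share in cluster 5 was no higher than theirs, and immune-like cells had 29.2% and 67.9%. *Has1* was found in 17.6% of matrix, 16.1% of cluster 5, 13.4% of mesothelial-like and 12.1% of hypoxic inflammatory-like cells after thinning, with 2.60% in melanoma-like and 4.32% in immune-like cells. As sequenced its shares were 56.7%, 24.6%, 48.4% and 50.1%, against 19.3% and 25.8%.

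*Has2* was found in 4.74% of matrix, 2.30% of hypoxic inflammatory-like, 1.53% of cluster 5 and 0.550% of mesothelial-like cells after thinning, and in 27.1%, 16.8%, 3.38% and 3.66% as sequenced. Melanoma-like cells had 0 of 615 thinned cells, which allows a share of up to 0.488%, and 2.89% as sequenced, and immune-like cells had 1.44% and 8.45%. *Cemip2* was found in 5.24% of mesothelial-like, 5.03% of hypoxic inflammatory-like, 2.36% of matrix and 0.445% of cluster 5 cells, and as sequenced in 30.0%, 32.8%, 20.8% and 1.47%. Melanoma-like cells had 0.813% and 10.9% and immune-like cells 5.05% and 27.2%, so cluster 5 had no higher share than melanoma-like cells, at a lower depth as sequenced. The other 4 genes were each found in under 1% of all thinned collagen-expressing cells, *Hyal2* in 0.742%, *Cemip* in 0.292%, *Hyal1* in 0.115% and *Has3* in 0.0431%, against 0.163%, 0.488%, 0.325% and 0% of melanoma-like cells, where 0 of 615 cells allows up to 0.488%. Their shares as sequenced were 5.96%, 1.26%, 0.978% and 0.475%, against 9.97%, 7.88%, 3.05% and 0%, so *Cemip* and *Hyal1* were in no larger share of cells than in melanoma-like cells at either depth.

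By library, the tdTomato+ eGFP neg cells had the highest thinned shares of *Cd44*, *Vcan* and *Cemip2* among all collagen-expressing cells. *Cd44* was found in 25.9%, 33.8%, 27.2% and 16.1% of cells (74.4%, 85.8%, 77.5% and 52.2% as sequenced), and *Vcan* in 18.5%, 29.0%, 25.2% and 19.1% (64.4%, 80.7%, 76.5% and 54.1%). *Tnfaip6* was found in 17.2%, 26.0%, 27.1% and 28.0% (46.0%, 62.3%, 58.3% and 54.3%). *Has2* was found in 0.992%, 2.42%, 3.64% and 2.13% (6.76%, 17.3%, 19.6% and 11.1%), lowest in the tdTomato neg eGFP+ library at both depths. *Has1* lay within 12.7% to 15.1% in every library (46.9% to 50.8%). *Cemip2* was found in 4.94%, 5.71%, 4.69% and 3.00% (31.4%, 34.0%, 32.0% and 19.1%).

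Co-detection asks whether a pair of genes is found in the same cells more often than their shares give. For each of the 45 pairs, the number of thinned cells with both genes was divided by the number given by the shares within each library and cluster, over 20889 cells. The synthase *Has1* and the hyaluronan modifier *Tnfaip6* were found together in 977 cells against 768 given by the shares, a ratio of 1.27 (1.19 to 1.35). The ratio was 1.26, 1.32, 1.36 and 1.25 in the 4 libraries, and 1.28 in matrix, 1.16 in mesothelial-like, 1.30 in hypoxic inflammatory-like and 1.37 in cluster 5 cells. It was above 1 in each of these, although the intervals of the mesothelial-like cells (0.995 to 1.35) and of the tdTomato+ eGFP+ library (0.961 to 1.86) reach below 1.

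*Cd44* and *Cemip2* were found together in 315 cells against 247, a ratio of 1.28 (1.14 to 1.43), with 1.12, 1.36, 1.61 and 1.30 in the 4 libraries. The pairs *Vcan* with *Cemip2* at 1.17 (1.03 to 1.34), *Cd44* with *Vcan* at 1.15 (1.09 to 1.22), *Cd44* with *Tnfaip6* at 1.11 (1.05 to 1.18) and *Vcan* with *Tnfaip6* at 1.09 (1.04 to 1.15) also had intervals above 1. *Has1* and *Has2* were together in 71 cells against 61.0, a ratio of 1.16 (0.909 to 1.47), which reaches below 1. *Has1* with *Cd44* stood at 1.06 (0.9799 to 1.14) and *Has1* with *Vcan* at 1.04.

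Over all cells, the ratios of the pairs named above were all nearer to 1 in cells thinned to 3000 UMIs. Within a library and cluster the ratio cannot pass 1 over the larger of the shares of a pair, so it is pressed toward 1 as more cells have a UMI, and ratios at different depths cannot be set against each other as strengths. At 3000 UMIs, with 4592 of 21477 cells left out, *Has1* with *Tnfaip6* stood at 1.13, *Cd44* with *Cemip2* at 1.13, *Cd44* with *Vcan* at 1.07 and *Has1* with *Has2* at 1.13 (1.02 to 1.25). *Has2* with *Cemip2* stood at 1.38 (1.16 to 1.63) there, but at 0.895 (0.477 to 1.53) at 1000 UMIs, from 13 cells. *Has2* with *Cd44* stood at 1.14 (1.05 to 1.24), with *Tnfaip6* at 1.13 (1.04 to 1.22) and with *Vcan* at 1.11 (1.03 to 1.20) at 3000 UMIs. At 1000 UMIs the same pairs stood at 1.16 (0.948 to 1.40), 1.09 (0.925 to 1.27) and 1.18 (0.987 to 1.39), all reaching below 1. As sequenced, with the number given by the shares taken within 10 bins of depth as well, *Has1* with *Tnfaip6* stood at 1.06 (1.03 to 1.08), *Has2* with *Cemip2* at 1.11 (1.05 to 1.19) and *Has1* with *Has2* at 1.04 (0.986 to 1.09). The interval lay above 1 for *Cd44* with *Vcan* at 1.03 (1.01 to 1.05) and with *Cemip2* at 1.03 (1.01 to 1.06), while those of *Vcan* with *Tnfaip6* (0.997 to 1.04), *Cd44* with *Tnfaip6* (0.998 to 1.04) and *Vcan* with *Cemip2* (0.996 to 1.06) reached below it. *Has2* with *Tnfaip6* (1.01 to 1.10) also stayed above 1 as sequenced, while *Has2* with *Cd44* (0.996 to 1.08) and with *Vcan* (0.997 to 1.08) reached below it. Doublets, droplets with more than 1 cell, were not removed here, and their part in these ratios was not tested.

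**Figure D3:**
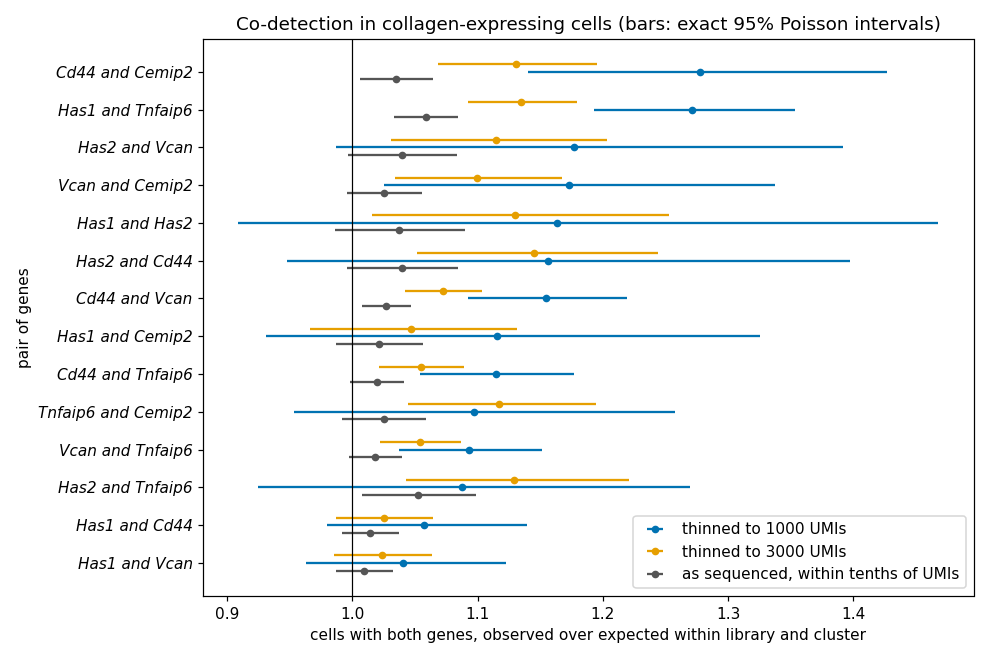
Cells with both genes of a pair over the number given by their shares within library and cluster, for the 14 pairs with at least 50 such cells given at 1000 UMIs, at 1000 UMIs, at 3000 UMIs and as sequenced within 10 bins of depth, with 95% intervals. *Has1* with *Tnfaip6* lies at 1.27, 1.13 and 1.06.

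Within library and cluster, the variance of counts thinned to 1000 UMIs over their mean, which is 1 for pure counting, averaged 2.20 for *Tnfaip6*, 1.38 for *Has1*, 1.29 for *Cd44*, 1.19 for both *Vcan* and *Cemip*, 1.04 for *Has2* and 1.03 for *Cemip2*. At 3000 UMIs, where the mean counts are higher, it was 4.18 for *Tnfaip6* and 1.99 for *Has1*, so genes of unlike levels are not ranked by it. Of the cells with a *Tnfaip6* UMI, the top 10% held 44.8% of its UMIs as sequenced, against 34.8% for *Has1*, 36.3% for *Cd44*, 34.5% for *Vcan* and 27.9% for *Has2*, and the highest cell held 117 *Tnfaip6* UMIs.

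The members' patterns were also compared over the 25 combinations of library and cluster with at least 50 cells, by Pearson's r of log2 of CPM plus 1. The points share libraries and animals and differ in depth, so r is a description. *Cd44* and *Cemip2* ran together (r = 0.913), as did *Has2* with *Tnfaip6* (0.859) and with *Vcan* (0.803). *Has1* ran against *Cemip2* (-0.802) and *Cd44* (-0.730) and showed little relation to *Has2* (-0.119).

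Among the 9642 genes with at least 1000 UMIs in collagen-expressing cells, the 3 most like *Has1* were *Saysd1* (r = 0.858), *Clec3b* (0.848) and *Fam174a* (0.844), and *Clec3b* is one of the universal fibroblast markers. The 3 most like *Has2* were *Frmd4a* (0.940), *Chsy3* (0.934) and *Thbs2* (0.930). *Cd44* and *Cemip2* shared *Adamts9* (0.962 and 0.938) and *Kif26b* (0.9496 and 0.955), with *Tbc1d1* (0.952) the remaining gene for *Cd44* and *Dot1l* (0.935) for *Cemip2*. For *Vcan* they were *Itga5* (0.964), *Calu* (0.957) and *Yipf5* (0.9497), and for *Tnfaip6* *Nav3* (0.945), *B3galt1* (0.943) and *Clmp* (0.940). *Cemip*, with 490 UMIs in these cells, *Hyal1* and *Has3* fell under the limit of 500 and were left out. Of the 7 members compared *Hyal2* had the lowest r, with *Alg12* (0.757), *Acap3* (0.747) and *Jmjd8* (0.737).

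The promoters of *Tnfaip6* and *Vcan* are shown because both genes were called higher in matrix cells. RefSeq promoter windows of 300 bases (build GRCm38.p6) were matched for 7 of the 10 genes, *Has1*, *Cd44*, *Vcan*, *Tnfaip6*, *Hyal1*, *Hyal2* and *Cemip*. Of *Has2*, *Has3* and *Cemip2* only the names are given. Both strands were searched for the letters TGANTCA (an AP-1 type motif), for CCAAT (the CCAAT box) and for TATAAA (the TATA box), which occur in 7.81%, 37.4% and 13.6% of all 32851 windows. Capitals mark the matches, which are descriptions and not sites of binding. The *Tnfaip6* window, chr2:52037863-52038162 on the plus strand, holds 1 TGANTCA and 2 CCAAT, the second of them read as ATTGG. The *Vcan* window, chr13:89742463-89742762 on the minus strand, lies inside the gene, 265 bases from its outermost start, and holds 1 CCAAT, read as ATTGG. *Has1* and *Hyal1* hold 1 CCAAT each, *Cemip* holds 1 TATAAA, and the windows of *Cd44* and *Hyal2* hold none of the 3.
Tnfaip6: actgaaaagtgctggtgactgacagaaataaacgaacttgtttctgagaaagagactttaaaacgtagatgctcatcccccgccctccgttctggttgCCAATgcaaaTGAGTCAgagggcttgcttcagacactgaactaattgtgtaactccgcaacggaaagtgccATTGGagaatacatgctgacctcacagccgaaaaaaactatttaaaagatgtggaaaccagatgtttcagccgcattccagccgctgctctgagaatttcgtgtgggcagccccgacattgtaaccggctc
Vcan: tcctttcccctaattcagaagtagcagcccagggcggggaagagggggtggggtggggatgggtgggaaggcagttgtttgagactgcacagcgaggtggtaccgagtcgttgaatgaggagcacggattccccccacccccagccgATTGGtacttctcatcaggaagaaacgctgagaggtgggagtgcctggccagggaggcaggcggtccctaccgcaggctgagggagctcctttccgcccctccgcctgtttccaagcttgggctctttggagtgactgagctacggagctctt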

How the data were processed

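Droplet libraries of 4 sorted populations were read from the deposited filtered matrices of raw UMI counts per gene and cell. The submitters' processing notes name Cell Ranger 10.0.0, STAR, Seurat 5.0 and GRCm39, while the file headers name Cell Ranger 8.0.0. CPM was computed here. The members and lists were chosen with earlier results of these data known. Genes in at least 3 cells were log-normalized to 10000, and 25 of 50 components of 2000 variable genes and 20 neighbours were used in Seurat 5.3.0 (R 4.3.3) with resolution 0.04 and then 0.34 for the collagen-expressing cells. None of the 10 members or 48 pathway genes entered the variable genes. Sums, ratios with 0.5 counts added, intervals, thinning to 1000 UMIs (3000 as an alternative) and co-detection used Python 3.11.15. The packages were numpy 2.4.6, scipy 1.17.1 and pandas 2.3.3, with matplotlib 3.10.9 for the figures. Only the calls between classes were tested on simulated data. Cells and libraries are not replicates, so no p-value was computed. Doublets were scored with Scrublet in scanpy 1.11.5, whose own threshold called 0, 0, 3 and 251 cells, and none was removed in the main analysis. As an alternative the 310, 210, 7 and 1016 cells with the highest scores were left out, at 0.8% expected doublets per 1000 barcodes. Named are all members, at most 10 called pathway genes a contrast by absolute log2 ratio, and the 3 genes most like each member with at least 500 UMIs in collagen-expressing cells. Cluster 5 stands in for the planned universal fibroblast-like class, because of its low depth. Alternatives were a mitochondrial limit of 5%, 15 and 40 components, no held-out genes, no doublets, no shared barcodes, means over cells, thinned cells, cells of 1 sex mark, 2 counts added, a minimum of 20 UMIs, equal weight for clusters and each library left out.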

Additional observations from a re-analysis of the deposited data

Results flagged for a closer look

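Several genes moved in opposite directions in different libraries under the same comparison, which is what brought them up, and the differences between libraries were not tested. The log2 ratio of *Has1* between matrix fibroblast-like and mesothelial-like cells was 0.71 in the tdTomato+ eGFP neg and 0.59 in the double-negative library, but -0.18 in the tdTomato neg eGFP+ and -0.27 in the tdTomato+ eGFP+ library. The ratio of *Tnfaip6* between cluster 5 and matrix cells was 0.68 in the tdTomato neg eGFP+ library, with 66 cells of cluster 5, and -0.43 in the double-negative library.

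Between hypoxic inflammatory-like and all other collagen-expressing cells, *Has2* stood at 1.06 in the tdTomato neg eGFP+ and 0.30 in the tdTomato+ eGFP neg library, and at -0.64 in the double-negative library. *Cemip* stood at 2.43 in the tdTomato+ eGFP+ library, where 16 UMIs lay in 2 cells, and at -2.68 in the tdTomato neg eGFP+ and -2.32 in the double-negative library.

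Opposite directions also occurred between cells with *Xist* and no Y-linked UMI and cells with a Y-linked and no *Xist* UMI, in the comparison of hypoxic inflammatory-like with other cells. *Tnfaip6* stood at -0.0408 in the former and 0.55 in the latter, and *Cemip2* at 0.30 and -0.59. These differences were not tested either.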

How the results depend on the processing

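No member called in the main analysis changed direction under any alternative run. *Has3* in tdTomato+ eGFP+, not called in the main analysis, ranged from -1.69 to 3.52 and was called in both directions. The counts of members called were the same in 12 of 12 cases with a mitochondrial limit of 5%, with doublets or shared barcodes removed, with all variable genes and with a minimum of 20 UMIs. In cells thinned to 1000 UMIs, cluster 5 had 2 members called higher (*Has3*, *Hyal1*) and 3 lower (*Has2*, *Cd44*, *Vcan*) against matrix cells, with *Has3* at 0 UMIs in both and called through the added counts alone, and with *Cemip* and *Cemip2* no longer called, although the ratio of *Cemip2* was at most -2.06 under every alternative, the tdTomato+ eGFP neg library 2 higher (*Has3*, *Cd44*) and the tdTomato+ eGFP+ library 1 higher (*Has3*), and *Cemip2* took the place of *Has3* as the 1 member lower in matrix than in mesothelial-like cells. With the mean over cells of each cell's CPM, 1 member (*Has3*) was called higher in tdTomato+ eGFP+. In cells with *Xist* and no Y-linked UMI, 2 members (*Has3*, *Cemip*) were lower in that library. In cells with a Y-linked and no *Xist* UMI, 1 member (*Has3*) was higher in tdTomato neg eGFP+ and in tdTomato+ eGFP+ and 0 in tdTomato+ eGFP neg, where *Cd44* was no longer called, and cluster 5 gave no value. With 15 components 1 member (*Hyal1*) was called higher in cluster 5, and with 40 components 1 (*Cemip*) lower in tdTomato+ eGFP neg. With 2 counts added, 0 members were lower in matrix than in mesothelial-like cells and 1 (*Has3*) was higher in cluster 5, where it has 0 UMIs, so the added counts alone made that call, and 4 were lower there, without *Cemip*. Leaving out each library in turn gave 0 to 2 members higher and 4 to 5 lower in cluster 5, and 0 to 1 lower in hypoxic inflammatory-like cells, while the counts between matrix and mesothelial-like cells stayed at 3 and 1. Apart from the count added, whose effect is on genes with few UMIs, the cause was not tested. Over all alternatives the ratio of matrix to mesothelial-like cells ranged from 2.30 to 3.77 for *Has2*, from 1.83 to 2.44 for *Tnfaip6*, from 1.06 to 1.49 for *Vcan* and from -3.53 to -1.34 for *Has3*, and that of *Cd44* in tdTomato+ eGFP neg from 0.67 to 1.32. Each population has 1 library, so differences between populations cannot be told apart from differences between libraries or mice, and *Has3*, *Hyal1* and *Cemip* rest on few UMIs.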
